A study of Mus musculus with 26 samples.

Results

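Microglia sorted from the fetal cortex were compared between E15.5 and E13.5 after maternal immune activation (MIA), that is 3 days and 1 day after the dam was injected. The cells were taken from 3 libraries labelled E15 and 3 labelled E13, all from the MIA arm, by 1 rule for every barcode: at least 500 detected genes, at most 20% of UMIs (unique molecular identifiers, one per captured transcript) on mitochondrial genes, and at least 3 UMIs summed over Csf1r, C1qa, C1qb and Cx3cr1. This left 16417 cells of 19639 barcodes, 6622 at E13.5 and 9795 at E15.5, in 6 of the 26 samples of the series. All embryos were wild-type C57Bl/6N of mixed sex. Dams of the MIA arm had received an intraperitoneal injection of poly(I:C), a synthetic mimic of viral RNA, at E12.5, and dams of the control arm saline. The prospective somatosensory cortex was freed of meninges and dissociated mechanically, and cells stained for Cd11b, Cx3cr1 and Cd45 were sorted and put through a 10x Chromium 3' kit. A library pooled cells of several embryos, so the library was the replicate (n = 3 per stage), and the labels do not say which litters it held. Where nothing shows that libraries came from separate litters, p-values measure only the spread between these libraries.

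Microglia are the resident macrophages of the brain. They derive from yolk sac progenitors that enter the neural tube early in gestation, divide there while they spread, and then take on the genes of the settled, homeostatic cell, among them the purinergic receptor P2ry12 and the membrane protein Tmem119. Transforming growth factor beta and the transcription factor Sall1 are known to hold that programme in place. Microglia also carry Toll-like receptors and interferon receptors, and type I interferon switches on a set of antiviral genes in them.

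The 6 libraries differed widely in depth. Kept cells numbered 272, 359 and 5991 in the E13.5 libraries 1 to 3 and 4991, 3396 and 1408 in the E15.5 libraries, and their UMIs summed to between 6079597 and 104346248 per library. Cells of E13.5 and E15.5 libraries had median depths of 8184 to 25630.5 and 9382 to 11259 UMIs. The microglial markers were present in every library, and the 12 of them summed to 10763 to 12007 CPM (UMIs scaled to a common library size) at E13.5 and 17329 to 22507 CPM at E15.5. E15.5 library 1 stood apart. Barcodes with at least 10 UMIs of 12 neuron markers made up 14.05% of its kept barcodes, against 0.71% to 2.65% in the other 5 libraries, and the neuron markers summed to 1676 CPM there against 44.6 to 436.7 CPM elsewhere. Xist, which marks female cells, measured 109.9 CPM there against 405.5 to 698.4 CPM in the other 5, and Y-linked genes summed to 54.6 to 62.6 CPM at E13.5 and 85.4 to 122.5 CPM at E15.5, and the part of embryo sex in the stage differences was not tested. Red blood cell markers ranged from 26.1 to 6192 CPM without following stage. Malat1, a nuclear RNA, took 0.702% to 0.791% of UMIs in the E13.5 libraries and 1.54% to 1.74% in the E15.5 libraries, and its part in the stage differences was not tested.

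A pair of libraries on opposite sides of the comparison listed the same cell barcodes. E13.5 library 2 and E15.5 library 3 shared 220 kept barcodes, which is 61.3% of the cells of the first and 15.6% of the cells of the second. The copy in the E15.5 library was the shallower one for all 282 listed shared barcodes and held a median of 28.3% of the UMIs (10th to 90th percentile 24.8% to 31.9%). Whether the RNA of these barcodes in E15.5 library 3 came from E13.5 cells was not tested. Across genes, the profiles of a shared barcode had a median correlation of 0.829, against 0.535 between a barcode and the next one in the shared set. Saline libraries, used further on, shared barcodes too: E15.5 saline library 3 shared 152 kept barcodes each with E13.5 MIA library 2 and E15.5 MIA library 3, and E13.5 saline library 1 shared 67 with E13.5 MIA library 1. An alternative left out every kept barcode that another of the 12 embryonic libraries listed with more UMIs, 228 of them in E15.5 MIA library 3.

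The largest principal component of the 6 libraries, with 52.5% of the variance over the 4167 genes used, separated the stages. Of 12975 genes tested with edgeR's quasi-likelihood test on UMIs summed per library, 1530 (11.8%) passed a Benjamini-Hochberg adjusted p of 0.05, 687 (5.29%) with a higher level at E15.5 and 843 (6.5%) with a lower level. The median log2 fold change of all tested genes was 0.05. Without the shared barcodes, 635 rose and 986 fell. The values of all 3 libraries of one stage lay above those of the other for 2302 genes (17.7%) in favour of E15.5 and for 2262 (17.4%) in favour of E13.5. The number of calls moved when single libraries were left out. Without E15.5 library 1 the counts were 1449 (11.6% of 12443 genes) and 1533 (12.3%), and without E15.5 library 2 they were 101 and 169. Without E13.5 library 1, 2 or 3 they were 89 and 239, 63 and 190, or 119 and 274. Without E15.5 library 3 they were 1216 and 821. Such fits also have fewer replicates, and this was not separated from the library left out.

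**Figure D1:**
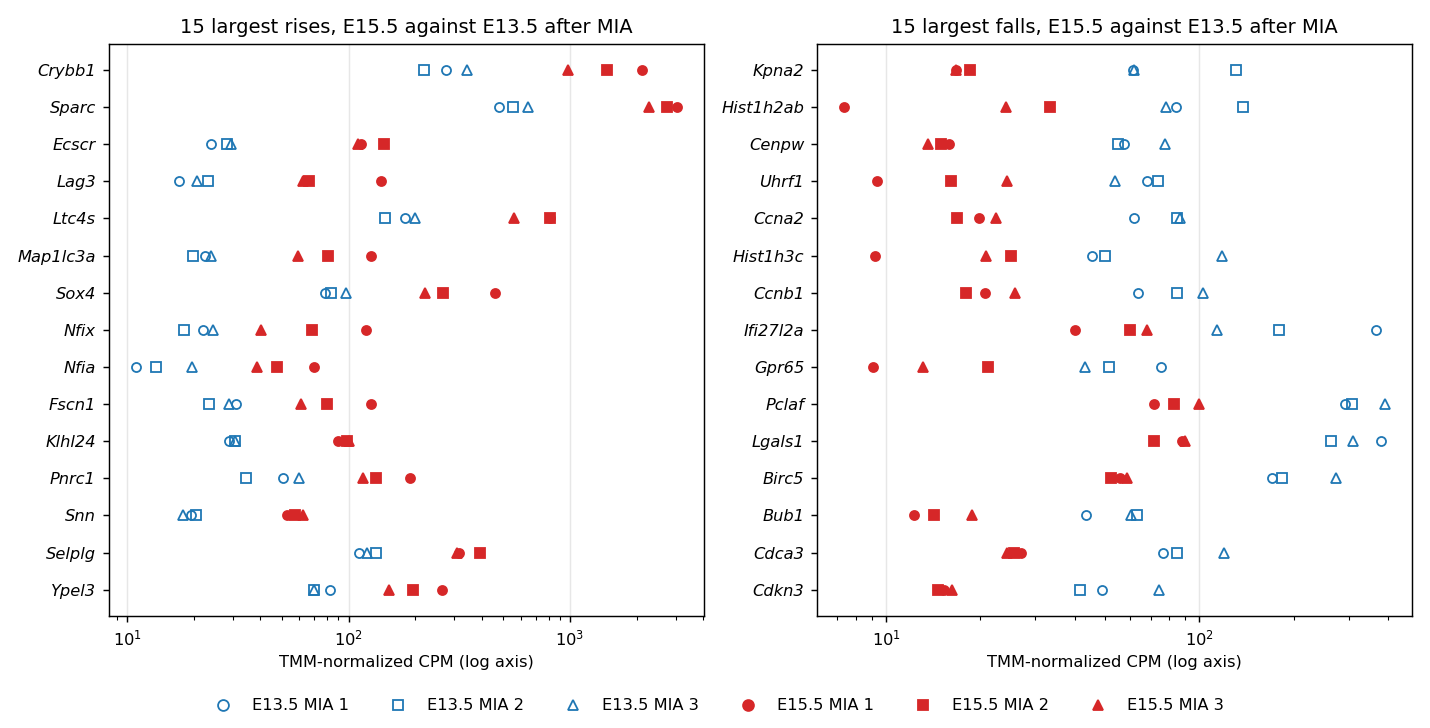
Level of the 15 genes with the largest rise (left) and the 15 with the largest fall (right) in each of the 6 MIA libraries, in TMM-normalized CPM on a log axis. Open blue symbols are E13.5 libraries and filled red symbols E15.5 libraries, with 1 symbol shape per replicate number. For every gene drawn the 3 libraries of one stage lie apart from the 3 of the other, from 219 to 344 against 977 to 2103 CPM for Crybb1 down to 69.5 to 82.8 against 153 to 264 CPM for Ypel3.

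Genes of homeostatic microglia were higher at E15.5. Of 29 tested members of the homeostatic list, 21 rose (72.4%, beside 5.29% of all genes) and none fell, with a median log2 fold change of 0.91 beside 0.05 for all genes. The same 21 and 0 were counted without the shared barcodes. Without E15.5 library 1 the count was 27 (93.1%, beside 11.6% of all genes). Summed over the list, the level was 16912, 15664 and 19231 CPM at E13.5 and 40105, 37634 and 31905 CPM at E15.5, so the stages did not overlap. Without E13.5 library 1, 2 or 3 the number that rose was 7, 9 or 11, beside 89, 63 or 119 of all genes. Without E15.5 library 2 it was 10, beside 101 of all genes. In a sum over cells, more cells with a gene and more RNA of it per cell cannot be told apart.

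Crybb1 (chr5:112255815-112269585, GRCm38), a crystallin that microglia express, had the largest rise among called genes with a mean of at least 50 CPM in the higher stage. Its level was 274.6, 219.0 and 343.9 CPM at E13.5 and 2103, 1463 and 977.0 CPM at E15.5. All E15.5 libraries were above all E13.5 libraries, and the log2 fold change was 2.44 (SE 0.32, edgeR adjusted p = 0.0073). Sparc (chr11:55394500-55423183), which encodes a secreted matrix-binding glycoprotein, stood at 475.5, 550.6 and 647.5 CPM and then at 3039, 2744 and 2270 CPM. Its log2 fold change was 2.27 (SE 0.19, edgeR adjusted p = 0.0044). Cst3, the secreted cysteine protease inhibitor cystatin C, went from 4122, 3353 and 4581 CPM to 11517, 10785 and 8692.5 CPM, a log2 fold change of 1.36 (SE 0.18).

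P2ry12, the ADP receptor that guides microglial processes, measured 1042, 947.0 and 830.7 CPM at E13.5 and 2060, 2056 and 2053 CPM at E15.5. The E15.5 libraries were nearly equal, and the log2 fold change was 1.13 (SE 0.15, edgeR adjusted p = 0.0073). Tmem119 went from 156.3, 182.9 and 184.8 CPM to 341.4, 379.8 and 356.6 CPM, a log2 fold change of 1.04 (SE 0.14). Selplg, the P-selectin ligand, rose by 1.47 (SE 0.16), and Ltc4s, which makes leukotriene C4, by 2.05 (SE 0.22). Lag3, an inhibitory receptor, rose by 2.14 (SE 0.34) and was highest in E15.5 library 1, at 140.6 CPM against 66.1 and 62.3 CPM in the other E15.5 libraries. Adgrg1, an adhesion receptor, was low in both stages and rose by 2.02 (SE 0.18). Sall1 measured a log2 fold change of 0.44 and did not pass the test, nor did Tyrobp, the signalling adaptor of Trem2, at 0.59 (SE 0.18, edgeR adjusted p = 0.074). P2ry12, Tmem119, Adgrg1 and Sall1 were picked out from the list after their values were seen.

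The homeostatic genes were higher also after cells with mitotic transcripts were left out. Cells were thinned to 4000 UMIs, shallower cells were dropped, and cells with at least 4 thinned UMIs of the G2 and mitosis list were left out. Of 29 homeostatic genes 17 still passed (58.6%, beside 2% of all genes, or 239 of 11924, that rose among these cells), with a median log2 fold change of 0.88. That count rests on 66, 54 and 765 remaining cells in the E13.5 libraries, and the dropping of dividing and of shallow cells was not separated. Among the remaining cells Crybb1 had a log2 fold change of 2.61, Sparc 2.24 and Cst3 1.28. Of 45 S phase genes 32 were still called lower among them (71.1%, beside 2.49% of all genes), and none rose. The stages thus still differed in cell cycle genes among these cells.

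Among the other genes of the 15 largest rises, Ecscr, a surface protein known from endothelium, rose by 2.18 (SE 0.17), and Klhl24, an adaptor of a ubiquitin ligase, by 1.67 (SE 0.12). Both had E15.5 libraries close to each other, at 110.2 to 144.5 CPM for Ecscr and 90.03 to 100.1 CPM for Klhl24. Map1lc3a, an autophagosome protein, rose by 2.00 (SE 0.28), Pnrc1, a nuclear receptor coregulator, by 1.59 (SE 0.26), Snn by 1.58 (SE 0.13) and Ypel3 by 1.46 (SE 0.22). Sox4, Nfix and Nfia, transcription factors that neurons and their progenitors also express, and Fscn1, an actin-bundling protein, rose by 1.86, 1.81, 1.79 and 1.68. All 4 of these had their highest level in E15.5 library 1, the library with the most neuron barcodes. So did Crybb1, Sparc, Lag3, Map1lc3a, Pnrc1 and Ypel3, while Ecscr, Ltc4s, Klhl24, Snn and Selplg did not. Sox4 stood at 78.6, 83.1 and 97.3 CPM at E13.5 and at 456.6, 266.1 and 221.5 CPM at E15.5. With the neuron-marker barcodes left out the log2 fold changes were 1.53 for Sox4, 1.07 for Nfix, 1.49 for Nfia and 1.58 for Fscn1, and each still passed the test.

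Genes of the cell cycle fell. All 48 tested members of the G2 and mitosis list were lower at E15.5 (100%, beside 6.5% of all genes), with a median log2 fold change of -1.70 and a range from -1.98 to -1.15. Of 45 tested members of the S phase list 44 fell (97.8%, beside the same 6.5%), with a median of -1.54. The sum over the G2 and mitosis list was 4995, 6067 and 6699 CPM at E13.5 and 1656, 1783 and 2192 CPM at E15.5. The sum over the S phase list was 3095, 3016 and 2860 CPM and then 977.1, 1203 and 1251 CPM. The stages did not overlap in either sum, and the counts of 44 and 48 were the same without the shared barcodes and without E15.5 library 1. Without E13.5 library 2 they were 29 and 25, beside 190 falls among all genes. Without E15.5 library 2 they were 26 and 30, beside 169. Without E13.5 library 1 the S phase count was 28, beside 239.

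Kpna2, an importin that carries proteins into the nucleus, had the largest fall among called genes of at least 50 CPM. It measured 61.4, 131.4 and 61.8 CPM at E13.5 and 16.8, 18.5 and 16.7 CPM at E15.5, with a log2 fold change of -2.29 (SE 0.31, edgeR adjusted p = 0.0082). Its E13.5 level was high in library 2 and nearly equal in the others. Ccna2 and Ccnb1, the cyclins that drive S phase, G2 and mitosis, fell by 1.98 (SE 0.19) and 1.97 (SE 0.22) on the log2 scale. Birc5, the survivin of the chromosomal passenger complex, fell by 1.91 (SE 0.21), Bub1, a spindle checkpoint kinase, by 1.89 (SE 0.22), Cdca3 by 1.88 (SE 0.19) and Cdkn3, a phosphatase of cyclin-dependent kinase, by 1.85 (SE 0.23). Hmgb2, a chromatin protein, went from 885.5, 903.5 and 1030 CPM to 249.2, 292.3 and 295.3 CPM, a log2 fold change of -1.75 (SE 0.16). Top2a, the topoisomerase that untangles chromosomes, and Mki67, the proliferation antigen Ki-67, both fell by 1.71 on the log2 scale, with SE 0.33 and 0.38.

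Among genes of replication and chromatin, Cenpw, a centromere protein, fell by 2.10 (SE 0.17) on the log2 scale. Uhrf1, which keeps DNA methylation through replication, fell by 1.99 (SE 0.34), Pclaf, a partner of the sliding clamp, by 1.96 (SE 0.19), and Pcna, the clamp itself, by 1.77 (SE 0.23). Cdc6, which loads the replicative helicase, fell by 2.01 (SE 0.23), Rrm1, a subunit of ribonucleotide reductase, by 1.68 (SE 0.23), and Mcm3, a subunit of that helicase, by 1.21 (SE 0.23). The histone genes Hist1h2ab and Hist1h3c fell by 2.21 (SE 0.52) and 1.97 (SE 0.48). Their reads can be split among near-identical copies, so these 2 values are uncertain.

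Promoters of the mitotic genes that fell carry sequence elements known from cell cycle control: the cell cycle homology element, TTTGAA, and the CCAAT box bound by the factor NF-Y. Windows from 250 bases before to 50 after the start were found in RefSeq (GRCm38.p6) for 40 of the 48 members. TTTGAA, read on both strands, was in a window of 77.5% of these genes, against 20.2% of the 27025 genes with any window, and CCAAT in 80% against 41.1%. Both were present for 67.5% of the members against 7.97% of all genes. The elements can share no more than an end base, and a match is a description, not a bound site. The 250 bases before the start are shown for the 3 fallen members with the highest level that hold both elements, 5' to 3' on the strand of the gene, with the elements in capitals on either strand.
Hmgb2, chr8:57511593-57511842, plus strand: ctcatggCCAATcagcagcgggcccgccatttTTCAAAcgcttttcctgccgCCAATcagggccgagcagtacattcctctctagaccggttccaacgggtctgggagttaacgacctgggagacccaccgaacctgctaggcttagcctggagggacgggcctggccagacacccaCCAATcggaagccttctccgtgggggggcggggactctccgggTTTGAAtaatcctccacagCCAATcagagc
Top2a, chr11:99024190-99024439, minus strand: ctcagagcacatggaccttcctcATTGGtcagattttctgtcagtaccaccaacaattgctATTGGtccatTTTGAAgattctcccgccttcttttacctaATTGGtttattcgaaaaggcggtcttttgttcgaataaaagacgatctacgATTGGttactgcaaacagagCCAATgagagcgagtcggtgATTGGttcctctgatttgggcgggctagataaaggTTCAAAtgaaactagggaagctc
Mki67, chr7:135716380-135716629, minus strand: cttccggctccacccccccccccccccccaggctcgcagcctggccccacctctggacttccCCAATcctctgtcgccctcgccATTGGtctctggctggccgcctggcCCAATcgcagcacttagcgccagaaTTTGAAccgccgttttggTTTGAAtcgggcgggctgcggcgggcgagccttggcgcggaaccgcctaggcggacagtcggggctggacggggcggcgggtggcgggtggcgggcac
The TTTGAA copies of Mki67 begin 116 and 98 bases before the start and follow 3 CCAAT boxes. In Hmgb2 a copy begins 30 bases and in Top2a, on the opposite strand, 23 bases before the start.

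The share of cells carrying mitotic transcripts fell as well. Each cell was thinned to 4000 UMIs, shallower cells being left out, and cells with at least 4 UMIs over the G2 and mitosis list were counted as dividing. They made up 71.1%, 76.8% and 82.5% of cells at E13.5 (mean 76.8% ± 5.73, SD, n = 3) and 18.7%, 18.3% and 21.2% at E15.5 (mean 19.4% ± 1.58, SD, n = 3). The stages were far apart, and the two-sided exact permutation p was 0.1, the smallest that 3 against 3 libraries can give. Without the shared barcodes the E15.5 mean was 17.3%. The difference was -57.4 percentage points, and -45.5 unthinned. Thinning left out 44 of 272, 126 of 359 and 1614 of 5991 kept cells in the E13.5 libraries. In the E15.5 libraries it left out 709 of 4991, 449 of 3396 and 215 of 1408, so the thinned shares describe the deeper cells. Without the kept neuron-marker barcodes the means were 76.7% and 18.7%. Among neuron-marker barcodes that failed the microglial minimum, and so lie outside the kept cells, this count was met by 100% of 2, 100% of 8 and 65.2% of 69 in the E13.5 libraries and by 43.0% of 305, 25% of 40 and 27.3% of 11 in the E15.5 libraries. That share too was lower in each E15.5 library, and the part of such cells in the fall was not tested.

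**Figure D2:**
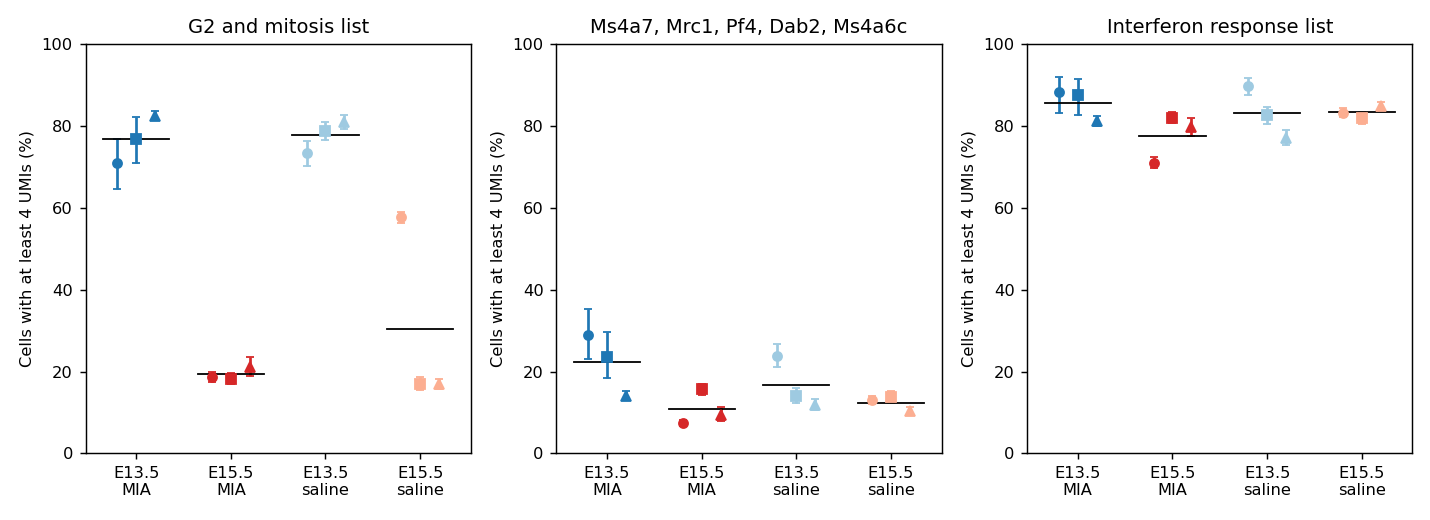
Share of cells, in percent, with at least 4 UMIs over the G2 and mitosis list (left), over 5 border macrophage genes (middle) and over the interferon response list (right), each cell thinned to 4000 UMIs. Points are the 12 embryonic libraries by stage and treatment, error bars exact 95% binomial intervals that cover counting error only, and black lines group means. In the left panel the MIA libraries lie between 71.1% and 82.5% at E13.5 and between 18.3% and 21.2% at E15.5, and saline E15.5 library 1 lies at 57.6%.

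Genes of border-associated and early macrophages varied between libraries. Of 25 tested members 3 fell (12%, beside 6.5% of all genes) and 2 rose (8%, beside 5.29%), with a median log2 fold change of -0.65. The lower ones were Cd36, a scavenger receptor, at -3.26 (SE 0.71, edgeR adjusted p = 0.03), Tgfbi, a matrix protein, at -1.02 (SE 0.22), and Wfdc17 at -1.68. Cbr2 and Lilra5 rose by 2.20 and 1.29. Pf4, a platelet factor that border macrophages express, measured 527.8, 118.0 and 32.7 CPM at E13.5 and 20.3, 104.1 and 19.1 CPM at E15.5, so the stages overlapped and its log2 fold change of -2.23 (SE 1.07, edgeR adjusted p = 0.2) did not pass. Lyve1, Dab2, F13a1 and Ms4a7 likewise did not pass, at -2.42, -1.28, -2.30 and -1.24. E13.5 library 1 had the highest level of each of the 5, which were picked out after their values were seen. Mrc1, the mannose receptor, overlapped between the stages (log2 fold change -0.62, SE 0.47), as did Maf (0.30) and Stab1 (-0.15).

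Cells with at least 4 UMIs over Ms4a7, Mrc1, Pf4, Dab2 and Ms4a6c were 28.9%, 23.6% and 14.1% at E13.5 (mean 22.2% ± 7.50, SD, n = 3) and 7.36%, 15.6% and 9.47% at E15.5 (mean 10.8% ± 4.31, SD, n = 3). E13.5 library 3 lay below E15.5 library 2, and the exact permutation p was 0.2. The difference was -11.4 percentage points, -7.08 with at least 6 UMIs, and -13.4 with at least 3 and -22.9 unthinned, where the stages did not overlap (exact permutation p = 0.1). No neuron-marker barcode outside the kept cells met this count in the 6 libraries.

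Interferon-stimulated genes showed no single direction with stage after MIA. With the same edgeR test, of 65 tested members 2 rose and 4 fell, the median log2 fold change was -0.21, and the list's sum was 2730, 2515 and 1799 CPM at E13.5 and 1840, 2235 and 2130 CPM at E15.5, with overlap. The 6 called are 9.23% of the list beside 11.8% of all genes. Without E15.5 library 1, 6 rose and 6 fell (9.23% each way, beside 11.6% and 12.3% of all genes). Without the neuron-marker barcodes 6 of 65 rose and 4 fell, beside 896 rises and 1153 falls among all 12624 genes. Ifi27l2a, an interferon-induced gene, fell most among the called members. Its level was 366.1, 180.0 and 113.5 CPM at E13.5, widely spread and highest in library 1, and 40.1, 60.3 and 68.3 CPM at E15.5, with a log2 fold change of -1.97 (SE 0.43, edgeR adjusted p = 0.031). Ifitm2, which restricts virus entry, fell by 1.11 (SE 0.26), Ifi207 by 1.42 (SE 0.30) and Oas1a, a double-stranded RNA sensor, by 1.63 (SE 0.42). Ly6e and Bst2, highly expressed members, did not pass: Ly6e measured a log2 fold change of 0.36 (SE 0.16, edgeR adjusted p = 0.19) and Bst2 -0.42 (SE 0.18, edgeR adjusted p = 0.16).

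Cxcl10, a chemokine induced by interferon, rose. It stood at 1.68, 5.64 and 4.58 CPM at E13.5 and 21.2, 49.5 and 16.0 CPM at E15.5, with a log2 fold change of 2.84 (SE 0.54, edgeR adjusted p = 0.019). Without dividing and shallow cells Cxcl10 measured 2.41 and did not pass (edgeR adjusted p = 0.12). The other called rise was Ly6a, at 1.46 (SE 0.34). Ifit3, Isg15 and Rsad2, antiviral genes that interferon induces strongly and that were picked out after their values were seen, had log2 fold changes of 1.90, 0.47 and 0.96 and did not pass.

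Windows before the start were found for 51 of the 65 interferon list members, and 58.8% of these genes held the core of the interferon-stimulated response element (GAAANNGAAA, both strands) against 3.99% of all genes. The 250 bases before the start are shown for the 3 called members with the highest level that hold it there, 2 of which fell and 1 of which rose, with the fixed letters of the core in capitals.
Ifitm2, chr7:140955962-140956211, minus strand: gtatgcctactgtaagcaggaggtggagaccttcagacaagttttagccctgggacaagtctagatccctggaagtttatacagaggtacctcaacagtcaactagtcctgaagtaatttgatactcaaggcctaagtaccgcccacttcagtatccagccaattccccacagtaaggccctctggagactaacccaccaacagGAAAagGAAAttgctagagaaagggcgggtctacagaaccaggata
Ifi207, chr1:173741810-173742059, minus strand: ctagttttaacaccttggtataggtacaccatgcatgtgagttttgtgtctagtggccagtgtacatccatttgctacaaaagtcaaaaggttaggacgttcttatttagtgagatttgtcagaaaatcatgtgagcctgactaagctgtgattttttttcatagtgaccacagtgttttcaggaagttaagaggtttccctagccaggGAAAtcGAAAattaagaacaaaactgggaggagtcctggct
Cxcl10, chr5:92348890-92349139, minus strand: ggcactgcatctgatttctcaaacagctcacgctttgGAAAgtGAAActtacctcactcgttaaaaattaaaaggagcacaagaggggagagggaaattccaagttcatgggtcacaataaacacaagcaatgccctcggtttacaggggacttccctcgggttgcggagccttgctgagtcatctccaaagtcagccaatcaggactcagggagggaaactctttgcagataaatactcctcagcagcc
The core begins 46 bases before the start in Ifitm2, 41 in Ifi207 and 213 in Cxcl10, so genes that hold it moved in both directions.

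Cells with at least 4 UMIs over the interferon list were 88.2%, 87.6% and 81.2% at E13.5 (mean 85.6% ± 3.87, SD, n = 3) and 71.0%, 82.0% and 79.8% at E15.5 (mean 77.6% ± 5.80, SD, n = 3). The stages overlapped (exact permutation p = 0.2). At the same setting the saline means were 83.2% at E13.5 and 83.3% at E15.5, so most cells met this count without poly(I:C). Without the kept neuron-marker barcodes E15.5 library 1 stood at 76.4% and the stage means at 85.9% and 79.8%. The difference was -8.01 percentage points, and -14.5 with at least 6 UMIs. Unthinned over the same cells the means were 98.8% and 94.7%, and there the stages did not overlap (exact permutation p = 0.1). With the shallow cells put back the unthinned means were 85.2% and 86.4%, which turned the direction.

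Among chemokines and cytokines, Ccl5, which attracts T cells and monocytes, was nearly absent at E13.5. It had 0, 0 and 12 UMIs in the E13.5 libraries, where 0 UMIs allow up to 0.423 and 0.493 CPM in libraries 1 and 2, and 1415, 800 and 351 UMIs at E15.5, which are 27.9, 22.5 and 21.4 CPM. Ccl5 passed the low-count filter only through the E15.5 libraries, and its fitted log2 fold change of 7.89 depends on the prior count and is no bound. Markers of mast cells and lymphocytes, cells that can also make chemokines, summed to 38.3 to 60.9 CPM at E13.5 and 67.5 to 102.5 CPM at E15.5, and the sort was on Cd11b, Cx3cr1 and low Cd45. Of the 10 markers 5 to 8 were at 0 UMIs in each library, so the sums rest on few genes. The mast cell genes Cpa3, Mcpt4 and Cma1 and the lymphocyte gene Nkg7 were at 0 in all 6 libraries. Of the T cell genes in that list Cd3e was also at 0 in all 6 libraries, while Cd3d was at 0 only in E13.5 library 2 and E15.5 library 3. The part of such cells in the Ccl5 counts was not tested. Relb, a subunit of NF-kB, was the other of 32 tested members to rise (0.93, SE 0.19). The 2 are 6.25% of the list beside 5.29% of all genes, none fell, and the median log2 fold change was 0.49. Ccl3 measured 116.5, 60.7 and 137.8 CPM and then 482.2, 179.9 and 208.8 CPM, and its log2 fold change of 1.46 (SE 0.45, edgeR adjusted p = 0.075) did not pass. Ccl12 (0.66) and Tgfb1 (0.36) did not pass either. The inflammatory cytokine genes Il1b and Tnf overlapped between stages, with log2 fold changes of -0.16 and -0.14.

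Of 37 tested double-stranded RNA sensors and cytokine receptors 2 rose (5.41%, beside 5.29% of all genes) and none fell. Ifngr1, the ligand-binding chain of the interferon gamma receptor, went from 303.3, 278.3 and 295.8 CPM to 516.2, 633.6 and 502.1 CPM, a log2 fold change of 0.91 (SE 0.16, edgeR adjusted p = 0.014). Il6ra, the interleukin 6 receptor, rose by 0.87 (SE 0.16, edgeR adjusted p = 0.017), while Ifngr2 measured 0.37 and did not pass. No member of the 21 tested MHC and antigen processing genes passed, and B2m, Psme1 and H2-D1 had log2 fold changes of 0.04, -0.16 and 0.46. Without E15.5 library 1, where 11.6% of all genes rose and 12.3% fell, 13 of 36 sensors and receptors rose (36.1%) and 1 fell (2.78%), and 2 MHC genes rose (9.52%) and 3 fell (14.3%).

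Of 18 tested complement and Fc receptor genes 5 rose (27.8%, beside 5.29% of all genes) and none fell, with a median log2 fold change of 0.51. Without neuron-marker barcodes 5 of 17 rose and 1 fell, beside 896 rises and 1153 falls among all 12624 genes. Without dividing and shallow cells 1 of 16 rose (6.25%, beside 2% of all genes). C1qc, a chain of complement C1q that the cell rule did not use, went from 2868, 2682 and 3409 CPM to 6382, 5644 and 4123 CPM (0.85, SE 0.20). Fcgr2b, the inhibitory Fc receptor, rose by 1.88 (SE 0.17), Fcgr3 by 0.76 (SE 0.15) and Itgam, the Cd11b used in the sort, by 0.99 (SE 0.22). Fcer1g, at 0.40, did not pass.

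Lysosomal genes rose in part. Of 42 tested members 14 rose (33.3%, beside 5.29% of all genes) and 1 fell, with a median log2 fold change of 0.56. Among the cathepsins Ctsf rose by 1.25 (SE 0.20), Ctss by 0.89 (SE 0.14) and Ctsd by 0.68 (SE 0.17). Ctsb did not overlap between the stages but did not pass (0.55, SE 0.24). Npc2, which moves cholesterol out of lysosomes, rose by 0.96 (SE 0.19). Ctsc, the cathepsin that activates serine proteases, fell by 0.81 (SE 0.16). The count of rises fell to 0 without E13.5 library 1, E13.5 library 2 or E15.5 library 2, and to 3 without E13.5 library 3. Rises among all genes were then 89, 63, 101 and 119. It was 12 without the shared barcodes.

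Of 24 tested axon tract and lipid-associated genes 2 rose and 2 fell, 8.33% each way beside 5.29% and 6.5% of all genes. Lgals1, a galectin, measured 380.4, 263.5 and 309.6 CPM at E13.5 and 88.3, 71.5 and 90.2 CPM at E15.5 (log2 fold change -1.93, SE 0.19), and Lpl, lipoprotein lipase, fell by 1.40 (SE 0.22). Pld3, a lysosomal nuclease, rose by 1.37 (SE 0.24), and Timp2, a metalloprotease inhibitor, by 0.62. Spp1, osteopontin, stood at 122.8, 56.4 and 336.1 CPM at E13.5 and at 1042, 64.3 and 54.5 CPM at E15.5, so E15.5 library 1 alone was high and its difference did not pass. Apoe, Ctsl and Cd63 had log2 fold changes of 0.11, 0.98 and 0.66 and did not pass.

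Adhesion and chemotactic receptors moved in both directions, with 3 rises (13.6%, beside 5.29% of all genes) and 4 falls (18.2%, beside 6.5%) among 22 tested, Selplg being one of the rises. Itgal, the integrin chain of LFA-1, went from 56.1, 52.9 and 33.1 CPM to 4.71, 11.14 and 11.03 CPM (log2 fold change -2.41, SE 0.37), and Cd44, a hyaluronan receptor, fell by 2.00 (SE 0.38). Itga4 and Clec12a fell by 1.35 and 2.12. Clec4a3, a lectin receptor, rose by 1.77 (SE 0.25). Gpr65, a proton-sensing receptor, was among the 15 largest falls, at -1.97 (SE 0.35). Of 19 tested genes for uptake of dying cells 2 rose (10.5%, beside 5.29% of all genes) and 1 fell (5.26%, beside 6.5%). Cd14 rose by 1.09. Timd4, a phosphatidylserine receptor, was the fall, with 20, 9 and 71 UMIs in the E13.5 libraries and 13, 10 and 1 in the E15.5 libraries, which differ in depth. It passed the low-count filter only through the E13.5 libraries, and its fitted log2 fold change of -2.83 depends on the prior count.

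Of 30 tested transcription factors that specify microglia 3 rose and 2 fell, or 16.7% beside 11.8% of all genes. Without E15.5 library 1, 8 rose (26.7%, beside 11.6% of all genes) and 2 fell (6.67%, beside 12.3%). Spi1, the factor PU.1, Maf and Mef2c measured log2 fold changes of 0.15, 0.30 and 0.45 without passing. Cebpa and Ikzf2 rose by 0.51 and 0.90, Runx3 fell by 2.17 (SE 0.37), and Myc fell by 1.02 (SE 0.22). Of 26 tested members of the list named for the TGF-beta pathway, Smad1 and Smad4 rose, by 0.59 and 0.51. These are 7.69% beside 5.29% of all genes, and none fell. Without the shared barcodes 1 of 25 rose, beside 635 of all 12936 genes, and without dividing and shallow cells 0 of 23 did, beside 2% of all genes. Without E15.5 library 1, 7 of 24 rose (29.2%, beside 11.6% of all genes) and 1 fell (4.17%, beside 12.3%). Tgfbr1 (0.17) and Itgb5 (0.58) did not pass.

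Of 90 tested nuclear genes of the respiratory chain 13 fell (14.4%, beside 6.5% of all genes) and 1 rose (1.11%, beside 5.29%), with a median log2 fold change of -0.46. Without the shared barcodes 17 of 90 fell, beside 986 of all 12936 genes, and 1 rose. Atp5k, a subunit of the ATP synthase, fell by 1.06 (SE 0.18), Cox7a2l rose by 0.82 (SE 0.19), and Cox4i1, Cox8a and Atp5e did not pass. The count that fell was 45 of 89 without E15.5 library 1 (50.6%, beside 12.3% of all genes). It was between 0 and 3 without E13.5 library 1, 2 or 3 or E15.5 library 2, where 169 to 274 of all genes fell. Of 34 tested constitutive proteasome genes 5 fell (14.7%, beside 6.5% of all genes), led by Psmb7 at -0.90 (SE 0.15), and none rose. Without E15.5 library 1 it was 19 (55.9%, beside 12.3% of all genes). Of the 13 mitochondrially encoded genes none passed, and their sums overlapped between the stages, at 49971, 40001 and 23494 CPM and then 23021, 33225 and 43484 CPM. Of 81 cytosolic ribosomal protein genes 3 fell (3.7%, beside 6.5% of all genes) and none rose, all 3 of them encoding ribosomal-like proteins (Rps27l, Rpl22l1 and Rpl7l1).

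The immediate early list had 1 rise, Btg2, an antiproliferative gene (1.18, SE 0.18), and 1 fall, Hsp90aa1, a chaperone (-0.96, SE 0.21), among 23 tested, or 8.7% beside 11.8% of all genes. Fos measured 2.38, 1.68 and 9.94 CPM at E13.5 and 82.7, 1.60 and 2.44 CPM at E15.5, so that E15.5 library 1 alone was high. In each case 1 gene fell of 28 tested for endoplasmic reticulum stress (Hyou1, -0.75), of 24 for iron and oxidative stress (the transferrin receptor Tfrc, -1.51) and of 23 for glycolysis and hypoxia (Ero1l, -0.57). These are 3.57%, 4.17% and 4.35% beside 6.5% of all genes. Without E15.5 library 1 the shares that fell were 21.4%, 16.7% and 22.7%, beside 12.3% of all genes. In that setting 1 gene of each list rose (3.57%, 4.17% and 4.55%, beside 11.6% of all genes).

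**Figure D3:**
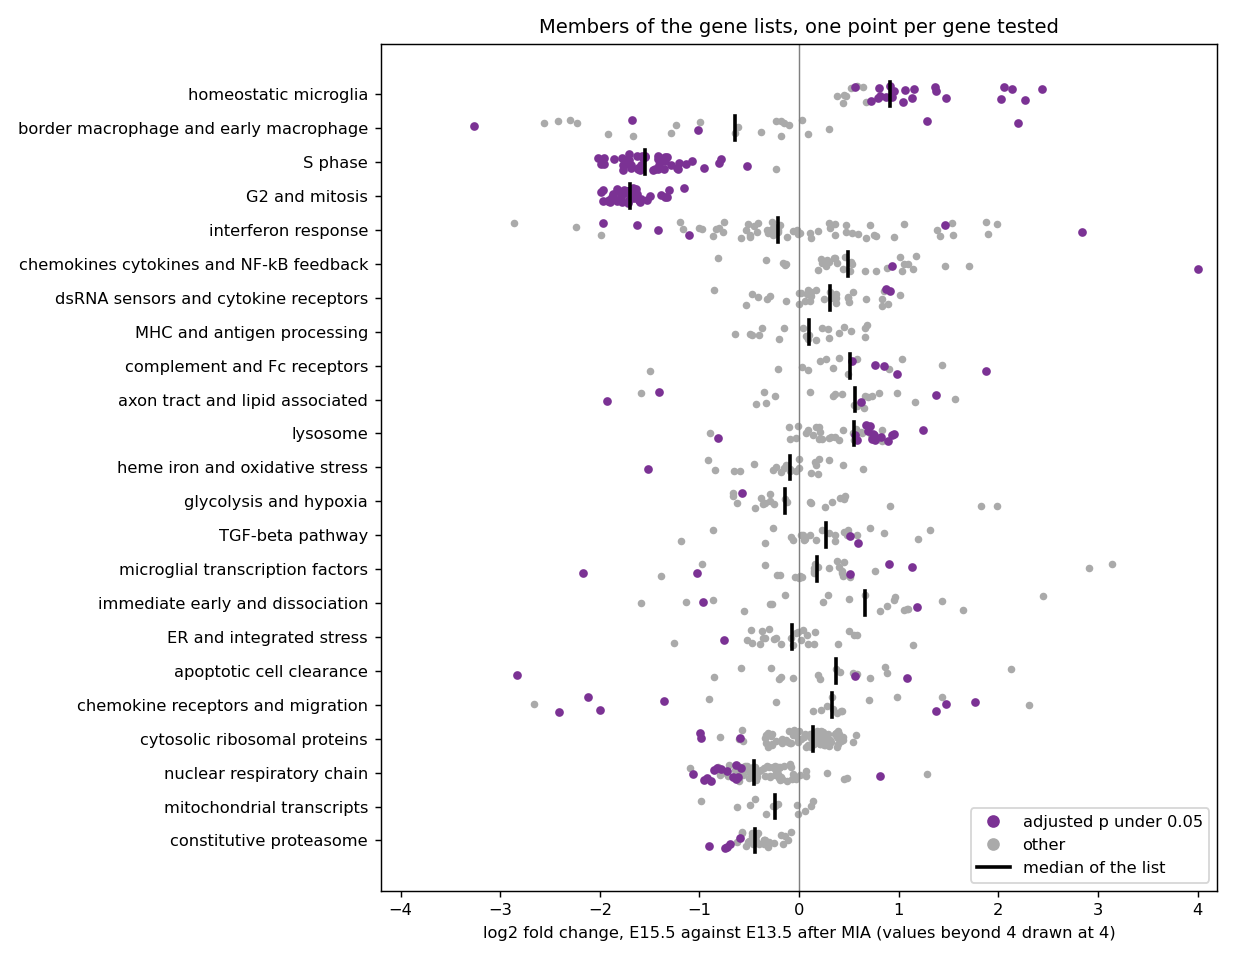
log2 fold change, E15.5 against E13.5 after MIA, of every tested member of the 23 gene lists, 1 point per gene. Purple points passed an adjusted p of 0.05, grey points did not, and black bars are list medians, from -1.70 for G2 and mitosis to 0.91 for homeostatic microglia. Ccl5, at 7.89, is drawn at the edge of the axis.

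The saline arm gives the change with stage in the absence of poly(I:C). Microglia of 6 saline libraries were taken by the same rule (19111 cells), and all 12 libraries were fitted together. Over 14081 genes the log2 fold changes with stage after MIA and after saline had a Pearson correlation of 0.874 across genes, which are not independent replicates. In that fit Crybb1 measured 1.99 after saline, Sparc 1.98, P2ry12 1.05 and Hmgb2 -1.24. Ccl5 measured 7.87 with an SE of 1.62 after saline, and 1366 of its UMIs in the E15.5 saline libraries lay in library 2, against 46 and 98 in libraries 1 and 3. Cxcl10 rose in both arms, by 4.25 (SE 0.87) after saline and 2.82 (SE 0.86) after MIA. It stood at 7.39, 119 and 29.8 CPM in the E15.5 saline libraries. No gene passed the test of the difference between the stage changes of the arms with edgeR (0% of 14081), 48 had an unadjusted p under 0.05, and DESeq2 called 0, with 42 under 0.05. The number under 0.05 was 212 without E15.5 MIA library 3, 181 without E13.5 MIA library 3 and 152 when replicate numbers were blocked within stage, each time with 0 calls. If no gene differed and p-values were evenly spread, a share of 0.05 of the genes would lie under 0.05, far more than these numbers. The test thus called little, and 0 calls do not show that the arms changed alike.

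**Figure D4:**
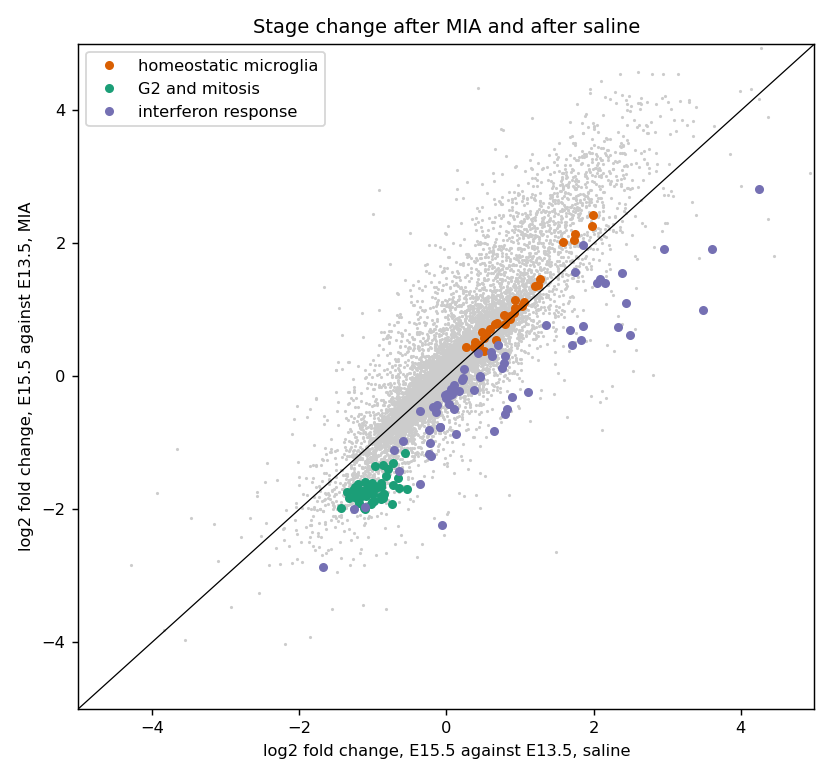
log2 fold change with stage after saline (x axis) and after MIA (y axis) for 14081 genes in the fit of 12 libraries, with the line of equal change. Members of the homeostatic list lie near the line, and members of the G2 and mitosis list (medians -1.003 after saline and -1.70 after MIA) and of the interferon list (medians 0.38 and -0.21) lie below it. No single gene passed the test of the difference.

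The 10 genes with the smallest p of that difference were 4833413E03Rik, Bcl7a, Nrgn, Slamf8, P3h3, Mex3b, Sdccag8, Timeless, Pdzd2 and Satb1. Their unadjusted p ranged from 0.00678 to 0.0304, and the adjusted p of each was 1.00 to 3 significant digits. Nrgn, a neuronal calmodulin-binding protein, had the largest positive difference among them, 2.95 on the log2 scale, on 9 UMIs in the E13.5 and 130 in the E15.5 MIA libraries, 98 of them in E15.5 library 1. The saline libraries held 1, 3 and 5 UMIs of Nrgn at E13.5 and 14, 5 and 4 at E15.5. Nrgn passed the low-count filter only through the E15.5 MIA libraries, and its fitted difference depends on the prior count. Timeless, a replication fork protein, had stage changes of -1.54 after MIA and -0.87 after saline.

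The smaller fall of cell cycle genes after saline moved with 1 saline library. Dividing cells made up 57.6% of E15.5 saline library 1, 17.0% of library 2 and 16.9% of library 3, beside 73.3% to 80.9% of the E13.5 saline libraries. Library 1 thus lay between the stages, and whether its cells match its label was not tested. All 48 G2 and mitosis genes had a difference below 0 between the stage changes (median -0.67), and without saline E15.5 library 1 the median was 0.02, with 20 of 48 below 0. For the S phase list the medians were -0.32 and 0.02, and for the homeostatic list 0.13 and -0.01.

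Of the 65 interferon list members, which share their libraries, 64 (98.5%) had a difference below 0 between the stage changes, beside 41.5% of all genes, with a median of -0.62. No member passed the test and the list as a whole was not tested. Without saline E15.5 library 1 it was 64 of 65 with a median of -0.83. Without saline E15.5 library 2 it was 54 of 65 with a median of -0.37. In CPM of the 12-library fit, Rsad2 measured 10.9, 6.05 and 1.02 at E13.5 and 8.17, 15.8 and 8.64 at E15.5 after MIA, and 1.47, 0.53 and 1.95 and then 2.38, 30.7 and 12.1 after saline. Its stage change was 0.99 after MIA and 3.49 after saline, with a difference of -2.50 (SE 1.28, edgeR adjusted p = 1.00). Isg15 measured 45.1, 20.9 and 15.7 and then 44.0, 31.9 and 35.2 after MIA, and 19.3, 7.55 and 10.8 and then 15.1, 83.7 and 23.6 after saline. Saline E15.5 library 2 was the highest of the 12 libraries for both genes.

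**Figure D5:**
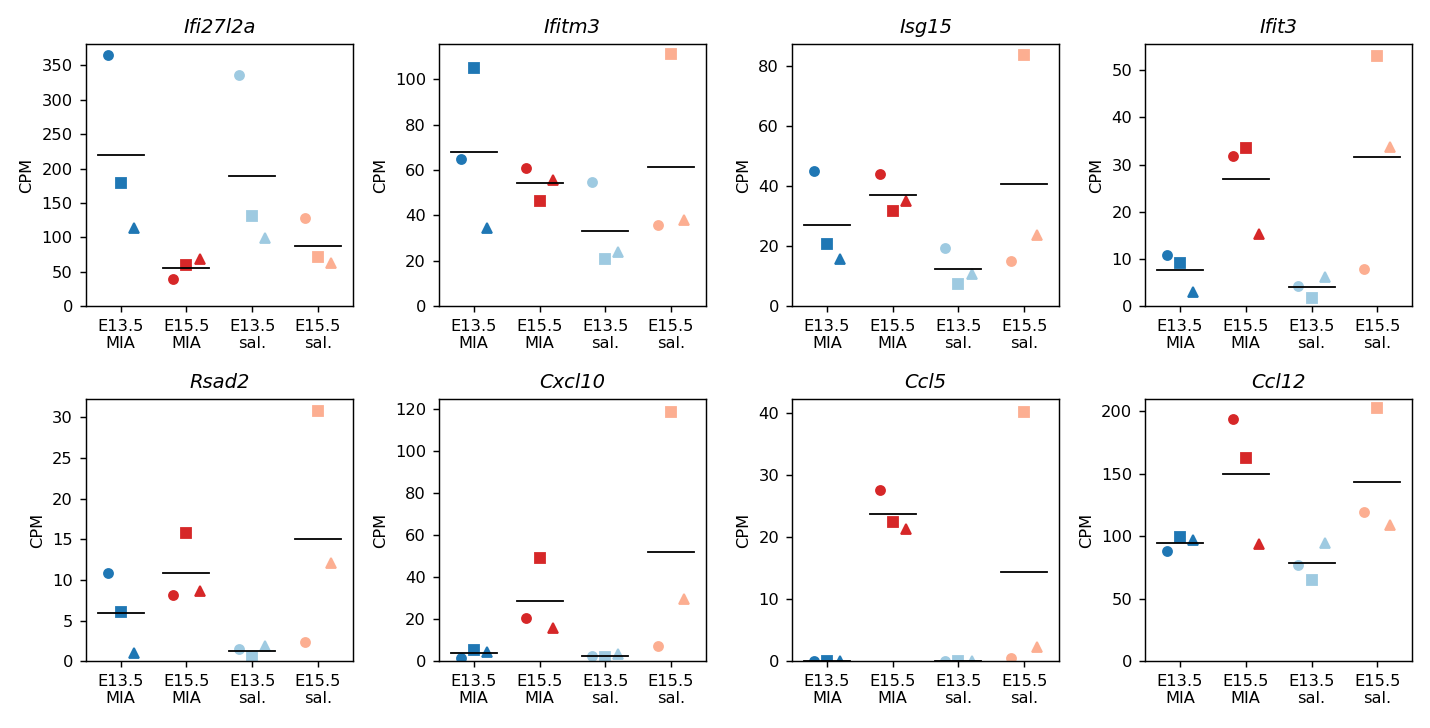
Level of 8 interferon-induced genes and chemokines in the 12 embryonic libraries, in CPM on a linear axis from 0, by stage and treatment, with symbols for the replicate number and black lines for group means. Ifi27l2a is lower at E15.5 than at E13.5 in every MIA library, Ccl5 lies at 21.4 to 27.5 CPM in the E15.5 MIA libraries and at 0.60, 40.2 and 2.33 CPM in the E15.5 saline libraries, and saline E15.5 library 2 is the highest for the 7 genes other than Ifi27l2a.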

How the data were processed

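Single-cell RNA was measured in microglia sorted from the E13.5 and E15.5 cortex. The deposited matrices hold UMI counts, raw and per gene and barcode, which per the file headers and the submitters' processing notes were made with Cell Ranger 3.1.0 on mm10. Barcodes with at least 500 genes, at most 20% mitochondrial UMIs and at least 3 UMIs over Csf1r, C1qa, C1qb and Cx3cr1 were kept. Doublets were kept in the main analysis, and the alternative that left them out used Scrublet scores (scanpy 1.11.5), because its automatic threshold marked 0% to 0.28% of cells in the larger MIA libraries. UMIs were summed per library and fitted with edgeR 4.0.16 (filterByExpr, TMM, quasi-likelihood, Benjamini-Hochberg over all genes) in R 4.3.3, after the script had been tested on simulated data. Levels of genes and gene lists are CPM after TMM normalization. Sums of cell type markers, levels of Xist and Y-linked genes and bounds for 0 UMIs are CPM without TMM factors. Each SE was computed as the absolute log2 fold change over the square root of the quasi-likelihood F. It is not a fitted standard error. DESeq2 1.42.0 was an alternative. The E15.5 against E13.5 contrast used the 6 MIA libraries, and the test of the difference between arms used all 12 embryonic libraries. For cell shares, the 3 libraries of each stage entered an exact permutation test (two-sided) with exact 95% intervals that cover counting error only. Positions are GENCODE, GRCm38.

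The members and gene lists were chosen with earlier results of these data known. The genes named were the 15 largest rises and 15 largest falls among called genes without overlap and with at least 50 CPM in the higher stage (ribosomal, mitochondrial, globin, unnamed, Xist, Y-linked and cell-rule genes left out), the 3 members of highest level and the largest called change each way of every list, and the 10 smallest p of the difference between arms. Other list members named in the text were chosen after their values were seen. Samples sharing a number were checked for pairing by the correlation of their deviations from group means: MIA and saline libraries of one stage correlated at 0.35 to 0.72 over the 6 pairs, and the test of the difference was repeated with that block. Sequencing batch was a covariate in the methods of the study, but the batch of each library is not given in the sources used here, so no batch term was fitted. Some genes that these rules name are not reported here.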

Additional observations from a re-analysis of the deposited data

How the results depend on the processing

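The main counts were 687 genes higher and 843 lower at E15.5. They were 239 and 297 with dividing cells and cells under 4000 UMIs left out together, 1390 and 1351 with DESeq2, and 1486 and 1358 with all 12 libraries in 1 fit, and 433 were higher with no filter on low counts. With one library left out the counts ranged from 63 to 1449 higher and from 169 to 1533 lower. Replicate numbers did not pair E13.5 with E15.5 libraries (correlations of -0.07, 0.62 and -0.64), and with the replicate block 75 genes were higher and 202 lower, with 5 homeostatic, 0 lysosomal, 23 S phase and 0 respiratory chain genes called. The cause was not tested. Homeostatic genes called higher ranged from 7 to 27 with one library left out, S phase genes called lower from 26 to 44 and G2 and mitosis genes from 25 to 48, with 11 of the latter left when dividing cells, which that list itself defines, and shallow cells were left out. Lysosomal genes called higher were 6 without dividing cells, 4 with no filter, 23 with DESeq2 and 0 to 19 with one library left out. Respiratory chain genes called lower were 20 with at least 10 microglial UMIs, 20 without neuron-marker barcodes, 8 without dividing cells, 8 with no filter, 33 with DESeq2, 27 with 12 libraries and 0 to 45 with one library left out. Of all genes, 1090 of 12796 fell with at least 10 microglial UMIs, 1153 of 12624 without neuron-marker barcodes and 656 of 20753 with no filter. Counts of list members move with these.

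No gene passed the test of the difference between arms under any alternative run, blocks included, which does not show that the arms changed alike. The difference in dividing share was -50.2 points thinned to 2000 UMIs, -45.5 unthinned and -46.8 unthinned without shallow cells. The Ms4a7-group share differed by -22.9 unthinned and -30.4 unthinned without shallow cells, and the interferon share by -14.5 at 6 UMIs, -13.9 thinned to 2000 and 1.19 unthinned. Of 127 named genes tested 75 were called, and all 75 stayed called without the shared barcodes, while 42 lost the call with the replicate block, 18 without dividing and shallow cells (55 kept it) and 11 with no filter, and with one library left out 168 values lost the call and 280 kept it. Genes that turned direction were not called. The settings for the shared barcodes, the shares without shallow cells and the block within stage were chosen after seeing the data. Without dividing and shallow cells B2m was at -0.10, Apoe at -0.16 and Slamf8 at 0.54. Bcl7a was at -0.076 with at least 10 microglial UMIs and at -0.14 without neuron-marker barcodes, where Slamf8 was at 0.049, and mt-Co1 was at 0.029 under a 10 CPM filter. With one library left out the log2 fold changes ranged from -0.0069 to 0.20 for Apoe, -0.049 to 0.070 for B2m, -0.28 to 0.093 for Cox4i1, -0.37 to 0.075 for Fth1, -0.34 to 0.060 for Psmb1, -0.46 to 0.10 for Rps29, -0.24 to 0.15 for Slamf8, -0.40 to 0.089 for Stab1, -0.078 to 0.42 for Tgfbr1, -0.20 to 0.19 for mt-Co1 and -0.50 to 0.082 for mt-Co3. Depth limits the low genes, since E13.5 libraries 1 and 2 hold 272 and 359 cells.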

Other observations

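Outside the gene lists, the called genes with the largest fitted rises after MIA were Acod1, which makes itaconate in activated macrophages, Cxcl9, a chemokine induced by interferon gamma, and Il12b, a subunit of interleukins 12 and 23. They were chosen after their values were seen. Acod1 had 0 UMIs in each E13.5 library, where E13.5 library 3 alone allows up to 0.0288 CPM, and 35, 31 and 28 UMIs in the E15.5 libraries. Cxcl9 had 0, 0 and 2 UMIs at E13.5 and 281, 253 and 14 at E15.5. Il12b had 1, 0 and 3 UMIs and then 100, 27 and 222. Saline E15.5 libraries 1, 2 and 3 held 20, 91 and 1 UMIs of Acod1, 4, 442 and 95 of Cxcl9, and 7, 351 and 15 of Il12b, so library 2 was the highest of them for each gene. They passed the low-count filter only through the E15.5 libraries, and their fitted fold changes depend on the prior count. Which cells carried these transcripts was not tested.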
